A study of Mus musculus with 11 samples.

Results

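The 5 keratoacanthomas of the series, 5 of 11 arrays in all, were compared with one another, gene by gene, to see how far tumours of 1 genotype differed. The arrays were those whose titles name a keratoacanthoma, a keratin-forming squamous tumour of the skin. All 5 tumours came from K14-Cre;Zmiz1 double transgenic mice. K14-Cre carries Cre recombinase under the promoter of keratin 14, which is active in the basal layer of the epidermis and the outer hair follicle, and Zmiz1 encodes a transcriptional co-activator related to the PIAS proteins. The 6 normal skins set beside them were 2 of the double transgenic genotype (normal skin 1 and 2), 2 from mice with K14-Cre alone (3 and 4) and 2 from mice with the Zmiz1 transgene alone (5 and 6). The tumours are written KA1 to KA5 and the skins NS1 to NS6. Whole pieces of snap-frozen tissue were measured, so that each array mixes keratinocytes with every other cell of the piece. The labels gave no age or sex, and whether 2 pieces can come from 1 mouse is not stated, so p-values measure only the spread between these arrays.

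Skin is built of an epidermis that renews from a basal layer, hair follicles that cycle between growth and rest, sebaceous glands, a dermis with vessels and resident immune cells, and a muscle sheet beneath. During growth a follicle makes a hair shaft, whose hair keratins are embedded in keratin-associated proteins encoded by the clustered Krtap genes, and an inner root sheath with keratins of its own. Keratoacanthomas consist of squamous, cornifying keratinocytes and often hold inflammatory cells, neutrophils among them. Genes of these parts were therefore read tumour by tumour.

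A gene's value was the median log2 signal over the probesets that name that gene alone, and 10329 genes had a mean above 6 over the 5 tumours, close to the array medians of 6.22 to 6.27 over all probesets. Among them the standard deviation (SD) over the 5 tumours had a median of 0.18, and the middle 50% of genes lay between 0.13 and 0.26. The gap between the highest and the lowest tumour was 1.37-fold for the median gene. In all, 68 genes, 0.658%, had an SD of at least 1. In the same 10329 genes the SD over the 6 skins had a median of 0.26, and 7455 genes (72.2%) had the smaller SD in the tumours. The tumours share a genotype and the skins do not, and the part of this in the SDs was not tested. Between pairs of tumours, the correlation across the 10329 genes ran from 0.930 (KA1 with KA4) to 0.967 (KA2 with KA5). Between pairs of skins it ran from 0.863 (NS1 with NS2) to 0.963 (NS5 with NS6), both pairs of the same genotype. These correlations are a description over genes that share array and normalization. At least 2-fold differences were found in 93 genes between KA2 and KA5, the closest pair, and in 330 between KA1 and KA5.

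The spread was also compared between the groups, with limma on each array's absolute deviation from its group median over 11559 genes. At an adjusted p below 0.05, 0 genes (0%) spread more and 3 (0.026%) spread less in the tumours, against 38 and 704 at an unadjusted p below 0.05. A variance ratio F test, added after the data were seen, called 0 genes in either direction (0%). The 3 genes were AU022252, Calm5 and Myl2, named after their values were seen, and all of their calls were lost when any single skin was left out. On simulated data of this size the fit on deviations found none of the spread changes put in, up to the largest, and the F test missed most of the smaller ones, so the counts say nothing about whether the groups spread equally.

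**Figure D1:**
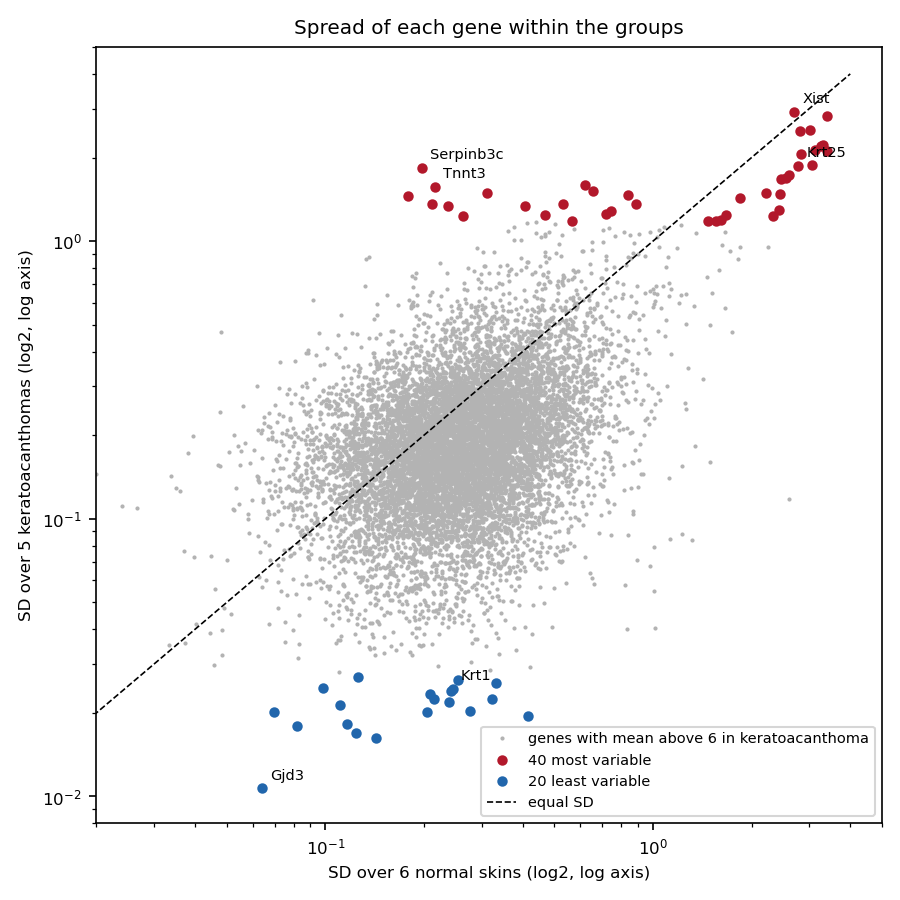
Standard deviation of each gene over the 6 normal skins (horizontal, log2 units on a log axis) and over the 5 keratoacanthomas (vertical, likewise), for genes with a mean above 6 in the tumours. The dashed line marks equal SD, and 72.2% of genes lie below it; red marks the 40 most variable and blue the 20 least variable genes, whose place on the vertical axis is how they were chosen.

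The 40 genes with the largest SD, 1.18 to 2.92, were described one by one. The last genes inside this list were Krtap5-2 and Krtap3-2 (both 1.18), and the first outside it were Krt77, a suprabasal keratin (1.17), and Car3, a carbonic anhydrase of muscle and fat (1.16). Of the 40, 18 were Krtap genes or members of a list of hair shaft and inner root sheath genes, and 3 were genes of skeletal muscle. KA4 was the highest tumour in 25 of the 40, KA5 in 8, KA2 and KA3 in 3 each and KA1 in 1. Among all 10329 genes with a mean above 6, KA4 was highest in 18.8% and KA5 in 23.9%. The skins were as uneven in many of the same genes: 22 of the 40 had a larger SD over the skins, and 28 genes with an SD of at least 1 in the tumours also had one in the skins, 41.2% of the tumour list of 68 and 28% of the skin list of 100. Without KA4, 39 genes had an SD of at least 1, and 14 of the 40 were still among the 40 most variable.

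**Figure D2:**
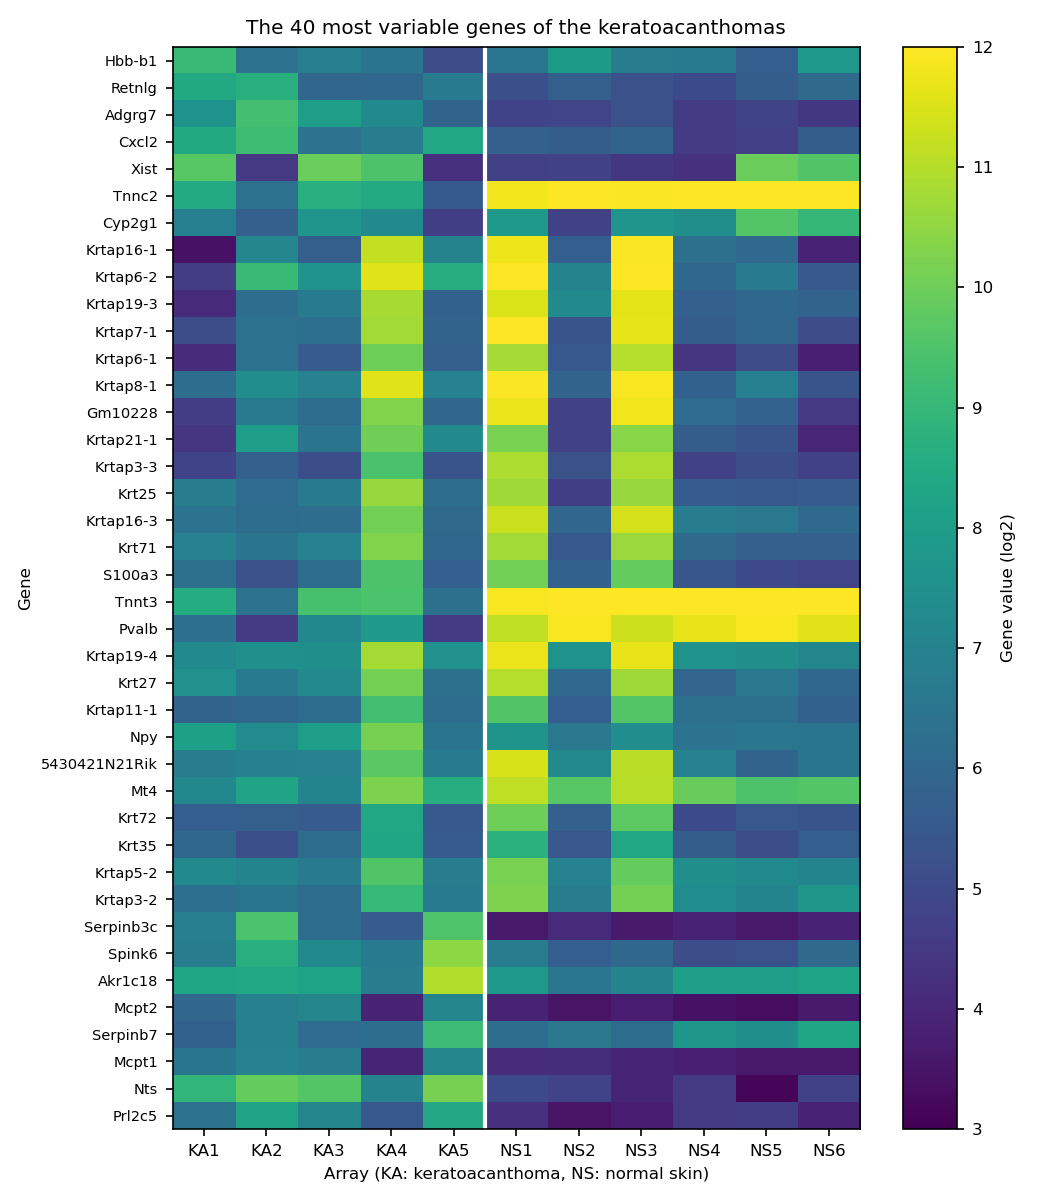
Gene value (log2, colour) of the 40 most variable genes (rows) in each array (columns, KA1 to KA5 and NS1 to NS6, divided by the white line). The block of hair genes is bright in KA4, NS1 and NS3, and values above 12, the end of the scale, share its brightest colour.

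Set against normal skin, 9 of the 40 were higher and 4 lower in the tumours and 27 passed the test in neither direction (limma over 20352 genes, adjusted p below 0.05). The floor on the tumour mean bears on these counts, since all 9 higher genes had a skin mean below 6 and entered the 40 only through their level in the tumours, so nothing is read from them. The differences of these 9 genes from skin, with their p-values, are likewise given below as description only. Among the 10329 genes above the same floor 26.9% were higher and 8.79% lower. Over all genes 14.5% were higher (2959) and 10.8% lower (2200), a split of 57.4% higher among the calls that became 67.5% when arrays were centred on their median gene. All 5 tumours lay above all 6 skins in 6 of the 40 and below them in 3. The shares were 18.3% and 5.33% among genes above the floor, and 9.66% and 6.31% over all genes. The 9 higher genes were Serpinb3c, Spink6, Mcpt1, Mcpt2, Retnlg, Nts, Prl2c5, Adgrg7 and Cxcl2, and the 4 lower ones Tnnt3, Tnnc2, Pvalb and Mt4.

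Genes of the growing hair follicle formed the largest group, and they were high in 1 tumour. Krt25, an inner root sheath keratin, had values of 6.77, 6.15, 6.70, 10.61 and 6.26 in KA1 to KA5, a 22.0-fold range, and 4.67, 5.61 and 10.71 as lowest, median and highest of the skins. Its partner Krt71, also of the inner root sheath, read 10.30 in KA4, 6.98 in KA3 with KA1 at the same level, 6.45 in KA2 and 6.04 in KA5. KA4 thus stood alone among the tumours, at the level of NS1 (10.71 and 10.74) and NS3 (10.61 and 10.65), while the other 4 skins were at or below 6.10 in both genes. The tumours and skins overlapped, and neither gene differed between the groups (log2 differences 0.19, SE 1.21, adjusted p = 0.93, and -0.06, SE 1.11, adjusted p = 0.97). NS1 and NS3 differ in genotype, and each had a partner of the same genotype, NS2 and NS4, with low values.

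Krt27 and Krt72, further inner root sheath keratins, and Krt35, a keratin of the hair cortex, were likewise highest in KA4, with 10.10, 8.36 and 8.28 in KA4 and at most 7.55, 5.73 and 6.17 in any other tumour. S100a3, a calcium-binding protein of the hair cuticle, read 6.32, 5.22, 6.19, 9.47 and 5.69. Over the whole list of 24 measured hair shaft and sheath genes the mean level was 6.20, 6.17, 6.26, 8.23 and 6.04. Of the 24, 23 were highest in KA4, against 18.8% of all genes with a mean above 6. The exception was Krt84, highest in KA5. In the skins the list stood at 9.21 in NS1 and 8.90 in NS3 and between 5.77 and 5.85 in the others. Of the 24 genes, 15 had a mean above 6 in the tumours, 6 an SD of at least 1, and 1 was higher and 1 lower than in skin, against 14.5% and 10.8% of all genes. The higher one, Tchh, encodes trichohyalin, a protein of the inner root sheath and of some cornifying epithelia, and did not follow the others: it was 11.48, 11.37, 11.34, 11.61 and 11.57 in the tumours against a skin median of 7.21.

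The Krtap genes, read as a family after their values were seen, gave the widest ranges. Krtap8-1 had values of 6.25, 7.43, 6.98, 11.57 and 6.98 in KA1 to KA5, and Krtap7-1 of 5.14, 6.36, 6.27, 10.74 and 5.87. Krtap16-1 spread furthest, from 3.45 in KA1 through 5.71 in KA3, 7.02 in KA5 and 7.17 in KA2 to 11.18 in KA4, a 212-fold range. Krtap6-2 was ordered alike, with 4.63, 9.11, 7.58, 11.57 and 8.61, so that the 4 tumours without high hair keratins were not level in every Krtap gene, and KA1 was lowest. Of 44 Krtap genes measured, 43 were highest in KA4, against 18.8% of all genes with a mean above 6. Of the 44, 29 had a mean above 6 and 14 an SD of at least 1. The median of the 44 was 8.36 in KA4 and between 5.50 and 6.24 in the other tumours, against 9.55 in NS1, 9.56 in NS3 and 5.69 to 6.12 in the other skins. Many Krtap genes have near-identical copies, and some were read by 1 or 2 probesets, so a value may combine several genes. In bulk tissue, fewer cells of a type and less RNA per cell cannot be told apart, for these genes and all below.

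Melanocyte genes were in part high in the same arrays as the hair genes. The list of 10, which covers pigment synthesis, had 5 members highest in KA4, against 18.8% of all genes with a mean above 6. It had its highest tumour mean in KA4 (5.84, with 5.07 to 5.55 in the others) and its highest skin means in NS1 (6.76) and NS3 (6.39). Mlana, a melanosome protein, read 6.53, 6.00, 6.60, 7.73 and 5.99, with 9.26 in NS1 and 8.27 in NS3. Dct, a pigment enzyme chosen after its values were seen, was highest in KA1 (6.82), next in KA4 (6.69) and at most 5.07 in the others. Their part in the hair gene result was not tested.

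The promoters of variable and of steady genes were set side by side. Stretches of 120 bases directly before the gene start (RefSeq, GRCm38.p6) are shown for 6 of the most variable genes, picked among those that hold TATAAA, and for 2 of the least variable, in the 5′ to 3′ direction of the gene, with each TATAAA in capitals, the core of the TATA box. The first 4 are hair genes highest in KA4, and Serpinb3c and Mcpt1 are not. They are Krtap6-2 (chr16:89420112-89420231, minus strand), Krtap8-1 (chr16:89487953-89488072, minus strand), Krt25 (chr11:99322952-99323071, minus strand), Krt71 (chr15:101743098-101743217, minus strand), Serpinb3c (chr1:107278372-107278491, minus strand), Mcpt1 (chr14:56017844-56017963, plus strand), Psmd4 (chr3:95042615-95042734, minus strand) and Rab14 (chr2:35201121-35201240, minus strand).
Krtap6-2: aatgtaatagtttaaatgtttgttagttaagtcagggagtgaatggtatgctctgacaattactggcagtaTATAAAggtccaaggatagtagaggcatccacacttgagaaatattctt
Krtap8-1: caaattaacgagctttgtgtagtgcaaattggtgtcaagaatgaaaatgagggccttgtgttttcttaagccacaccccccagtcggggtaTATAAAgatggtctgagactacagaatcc
Krt25: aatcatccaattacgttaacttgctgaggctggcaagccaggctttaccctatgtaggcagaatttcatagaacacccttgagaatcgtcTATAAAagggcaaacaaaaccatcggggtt
Krt71: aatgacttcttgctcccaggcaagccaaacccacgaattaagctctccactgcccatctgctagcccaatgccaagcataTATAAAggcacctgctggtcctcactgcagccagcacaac
Serpinb3c: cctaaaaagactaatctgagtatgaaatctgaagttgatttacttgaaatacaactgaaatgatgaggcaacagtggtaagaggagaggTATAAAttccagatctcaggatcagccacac
Mcpt1: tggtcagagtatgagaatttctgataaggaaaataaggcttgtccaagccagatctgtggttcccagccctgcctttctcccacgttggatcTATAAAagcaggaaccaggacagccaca
Psmd4: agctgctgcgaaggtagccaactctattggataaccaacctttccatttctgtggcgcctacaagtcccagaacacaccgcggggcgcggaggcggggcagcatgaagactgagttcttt
Rab14: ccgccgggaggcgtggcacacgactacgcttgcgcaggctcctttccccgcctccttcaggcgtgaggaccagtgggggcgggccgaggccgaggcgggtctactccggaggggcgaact
The capitals stand 28 to 49 bases before the start in the first 6 sequences, and the last 2 hold no TATAAA in this window.

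Of the 40 most variable genes, 32 matched a promoter, and 17 of these (53.1%) held TATAAA on the gene's strand within the 120 bases, while the other 15 did not. Among all 27025 genes of the RefSeq promoter set the share was 4.97%, and among the 8142 matched genes with a mean above 6 in the tumours it was 3.49%. Of the 20 least variable genes, 14 matched and 0 held it. On the opposite strand the shares were 3 of 32, 1 of 14 and 3.14% of all genes. Most of the matches lay in genes highest in KA4, of which 15 of the 21 matched held TATAAA on their strand. Hair genes make up much of that set, which also holds Tnnt3, Pvalb, Npy and Mt4, and Krtap genes of a cluster share sequence. Of the 11 matched genes not highest in KA4, 2 held it, and these are Serpinb3c and Mcpt1. A match of letters is a description and not a measured binding site.

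Xist, the RNA that coats the inactive X chromosome in cells with more than 1 X, had the largest SD of all. It read 9.66, 4.51, 9.95, 9.49 and 4.24 in KA1 to KA5 and 4.69, 4.73, 4.47, 4.29, 9.95 and 9.57 in NS1 to NS6, from 1 probeset. Y-linked genes ran the other way in every array. Eif2s3y, a translation factor gene on the Y chromosome, was 2.75, 8.41, 2.19, 2.49 and 8.24 in the tumours, and 7.02 to 7.70 in NS1 to NS4 against 3.50 and 3.04 in NS5 and NS6. Kdm5d and Uty, Y-linked histone demethylase genes, were likewise higher in KA2 and KA5 (6.81 and 7.21 for Kdm5d, 6.65 and 6.88 for Uty) than in the other tumours (at most 4.86 and 3.45). These 3 genes were looked up after the Xist values were seen; their means in the tumours are below 6 and they are outside the 40. KA2 and KA5 were therefore low in Xist and high in Y-linked RNA, as were NS1 to NS4, while KA1, KA3, KA4 and both skins with the Zmiz1 transgene alone had the opposite pattern.

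**Figure D3:**
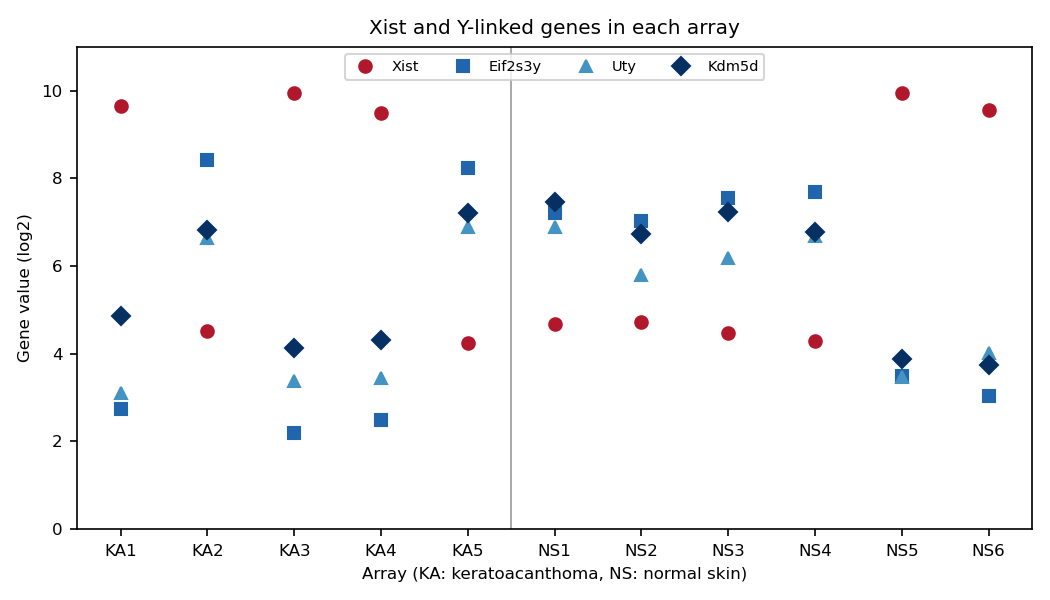
Gene values (log2) of Xist and of the Y-linked genes Eif2s3y, Uty and Kdm5d in each array. Xist is near 10 where the Y-linked genes are low (KA1, KA3, KA4, NS5, NS6) and below 5 where they are high (KA2, KA5, NS1 to NS4).

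KA2 and KA5 also stood together in many other genes. Among the 423 genes with a mean above 6 and an SD of at least 0.5, the 2 highest tumours were KA2 and KA5 in 140 (33.1%), the most frequent pair, followed by KA3 and KA4 in 64 (15.1%). Within the 68 genes with an SD of at least 1, KA2 and KA5 were the 2 highest in 13 and the 2 lowest in 22. Pairs were not counted over all 10329 genes, so these counts have no share over all genes beside them. The same pair differs from the other tumours in Xist and the Y-linked genes, and the part of this in the other differences was not tested. KA1 was the lowest tumour in 40.7% of the 423 genes and in 26.5% of all 10329, and KA5 the highest in 31.0% and 23.9%.

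Several genes high in KA2 and KA5 belong to stressed or cornifying epidermis. Serpinb3c, a serine protease inhibitor of the squamous cell carcinoma antigen family, read 6.84, 9.45, 6.19, 5.64 and 9.52 in KA1 to KA5, a 14.7-fold range. All 6 skins lay between 3.61 and 4.09, so that even the lowest tumour was above every skin, and the mean was 13.3-fold higher in the tumours (log2 difference 3.73, SE 0.62, adjusted p = 0.00081). The floor on the tumour mean favoured this direction, so the p-value is a description and no support. All 5 probesets of Serpinb3c had KA5 as their highest tumour, with SDs of 1.90 to 2.60. Its close relative Serpinb3d, looked up after the values were seen, read 7.31, 8.89, 7.61, 6.66 and 9.13, whereas Serpinb3a was less spread, from 7.38 in KA4 to 9.39 in KA2. The copies are similar in sequence, so the probesets may read more than 1 of them.

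Spink6, a Kazal-type inhibitor of skin kallikreins, was 6.83, 8.65, 7.31, 6.69 and 10.48, with KA5 highest in all 4 probesets. The skins ran from 5.13 through a median of 5.87 to 6.83, and NS1 overlapped the 2 lowest tumours. The tumour mean was 4.42-fold higher (log2 difference 2.15, SE 0.59, adjusted p = 0.017). Prl2c5, a secreted member of the prolactin and proliferin family, read 6.39, 8.24, 7.09, 5.50 and 8.44 and was at most 4.65 in any skin (8.31-fold higher, log2 difference 3.05, SE 0.46, adjusted p = 0.00039). Nts, the precursor of the peptide neurotensin, was 8.91, 9.87, 9.59, 7.01 and 10.15, and its lowest tumour, KA4, was still well above the highest skin at 5.03 (26.6-fold higher, log2 difference 4.73, SE 0.50, adjusted p = 3.3e-05). For Spink6, Prl2c5 and Nts, too, the floor on the tumour mean favoured the higher direction.

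The list of 24 genes of stressed and hyperproliferative epidermis averaged 9.39, 10.22, 9.55, 9.46 and 10.17, with KA2 and KA5 highest, and 5.81 to 6.95 in the skins. KA2 was the highest tumour in 8 of the 24, and KA5 in more of them. Among all 10329 genes with a mean above 6, KA2 was highest in 17.8% and KA5 in 23.9%. The stress keratins of the list did not follow its mean. Krt6a and Krt16 were lowest in KA2 (10.92 and 11.43) and highest in KA5 (11.33 and 11.65), while Krt6b was highest in KA1 (11.56) and Krt17 in KA4 (9.96). Of the 24, 23 were higher in the tumours and 0 lower, against 14.5% and 10.8% of all genes, and 26.9% and 8.79% of genes with a tumour mean above 6. The lists were chosen with earlier results of these data known. This count and those of the lists below are therefore descriptions and no independent support. Il1f9 (interleukin 36 gamma), an alarm cytokine of keratinocytes, read 8.58, 10.64, 8.62, 8.82 and 10.77, with a skin median of 7.27 and highest skin of 8.54. Il1f6 (interleukin 36 alpha), of the same cytokine family, was high in KA2 alone, at 9.35, with 6.87, 6.52, 6.81 and 7.71 in KA1, KA3, KA4 and KA5. The Sprr2 family encodes small proline-rich parts of the cornified cell envelope and was chosen after its values were seen. Of its 10 measured members, which include the pseudogene Sprr2j-ps, 8 were highest in KA5, Sprr2j-ps among them. The median of the 10 read 8.24, 9.32, 8.67, 8.29 and 9.78 in the tumours and 4.35 to 5.16 in the skins. Mmp12, a matrix metalloproteinase known from macrophages, was also highest in KA5 and next in KA2, with 7.85, 9.47, 8.86, 7.44 and 10.11, and its highest skin, at 7.45, reached KA4.

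**Figure D4:**
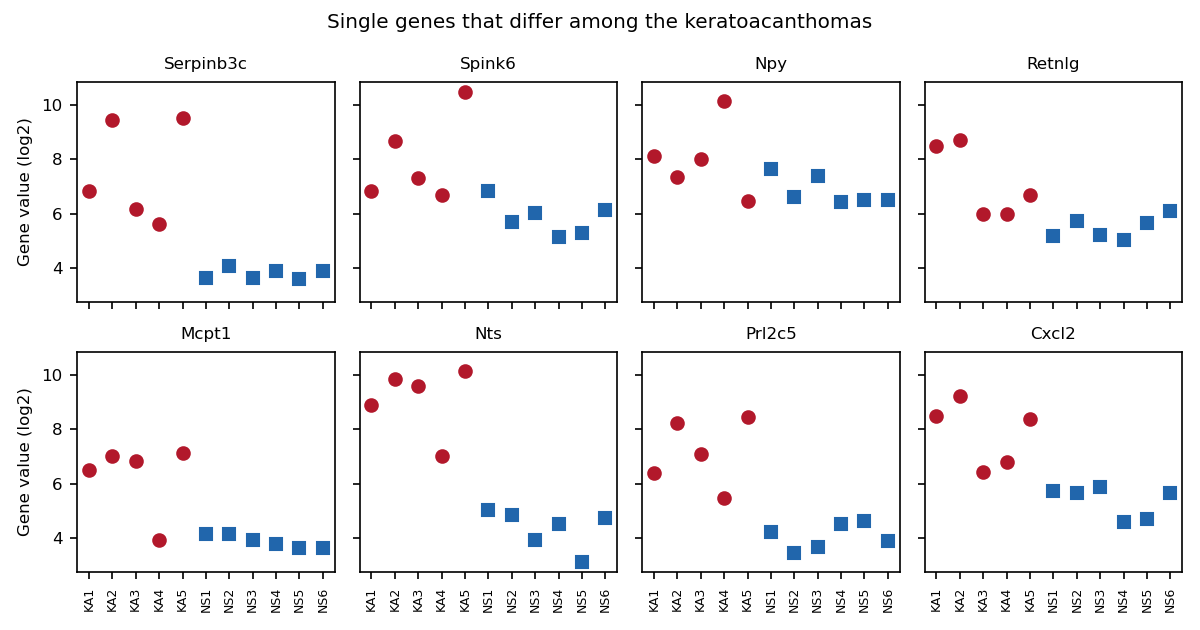
Gene values (log2) of 8 of the most variable genes in the 5 keratoacanthomas (red circles) and 6 normal skins (blue squares). Serpinb3c and Spink6 are highest in KA5, with KA2 next; Npy is highest and Mcpt1, Nts and Prl2c5 are lowest in KA4; Retnlg and Cxcl2 are highest in KA2.

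Single tumours stood out in other genes. Akr1c18, a hydroxysteroid dehydrogenase that inactivates progesterone, was 8.32, 8.40, 8.22, 6.79 and 10.98, highest in KA5 and lowest in KA4, while the skins lay between 6.55 and 8.21. Serpinb7, a serine protease inhibitor of the upper epidermis, read 5.78, 6.96, 6.15, 6.24 and 9.16, with KA5 above and the other 4 tumours within or below the skin range of 6.18 to 8.32. Npy, the precursor of neuropeptide Y, was 8.11, 7.36, 8.01, 10.15 and 6.47, with KA4 highest, KA1 and KA3 also above all skins (6.41 to 7.65) and KA2 and KA5 inside their range. None of these 3 passed the test against skin, with log2 differences of 0.94 (SE 0.57, adjusted p = 0.26), -0.23 (SE 0.57, adjusted p = 0.805) and 1.17 (SE 0.50, adjusted p = 0.11), although Npy passed it without KA5. Adgrg7, an adhesion G protein-coupled receptor, was 7.59, 9.30, 8.02, 7.30 and 5.90, with KA2 highest in all 16 probesets, and all tumours were above all skins (at most 5.23; 7.05-fold higher, log2 difference 2.82, SE 0.43, adjusted p = 0.00044). As for Serpinb3c, the floor on the tumour mean favoured this direction.

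Mt4, a metallothionein of stratified epithelia, was 7.20, 8.24, 7.06, 10.23 and 8.61 against 9.50 to 11.12 in the skins, so that KA4 alone reached the skin range. Its mean was 3.64-fold lower in the tumours (log2 difference -1.86, SE 0.52, adjusted p = 0.018), a call lost without NS1 and NS3. Cyp2g1, a cytochrome P450 enzyme, read 6.88, 5.77, 7.71, 7.31 and 4.68 against 4.76 to 9.59 in the skins and did not pass the test (log2 difference -1.26, SE 0.75, adjusted p = 0.25), but did so without NS2. Both genes varied in the skins as well, with SDs of 0.74 and 1.67.

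Genes of inflammatory cells did not all divide the tumours alike. The neutrophil list, Cxcr2 and Il1b were highest in KA2 and KA5, but Retnlg in KA1 and KA2. Retnlg, a resistin-like protein of neutrophils, was 8.48, 8.72, 5.97, 5.99 and 6.68, high in KA1 and KA2, and 5.02 to 6.10 in the skins, which the 2 lowest tumours overlapped. It was 3.21-fold higher in the tumours (log2 difference 1.68, SE 0.48, adjusted p = 0.021), a call lost without KA1, without NS1 and NS3 and with the mean over probesets. Cxcl2, a chemokine that attracts neutrophils, was 8.48, 9.21, 6.44, 6.79 and 8.37, low in the same KA3 and KA4, with every tumour above every skin (at most 5.88; 5.59-fold higher, log2 difference 2.48, SE 0.46, adjusted p = 0.0015). For Retnlg and Cxcl2 the floor on the tumour mean favoured the higher direction. The list of 18 neutrophil genes averaged 6.44, 6.97, 6.12, 5.93 and 6.64 and 4.79 to 5.40 in the skins; 9 of the 18 were higher in the tumours and 0 lower, against 14.5% and 10.8% of all genes. Cxcr2, the receptor that defines neutrophils in this list, was 7.86, 8.67, 7.77, 7.59 and 8.58, a narrower range than that of Retnlg, and at most 5.63 in the skins. Il1b, the inflammatory cytokine interleukin 1 beta, read 8.04, 9.08, 7.96, 6.86 and 8.89.

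Mast cell proteases did not move together. Mcpt1 and Mcpt2, proteases of mucosal mast cells, were 6.50, 7.01, 6.82, 3.94 and 7.15, and 5.96, 6.93, 7.09, 3.91 and 7.11. KA4 lay inside the skin range for Mcpt1 (3.63 to 4.17) and just above it for Mcpt2 (3.30 to 3.89), and the other 4 tumours lay well above both. Both genes were higher in the tumours (5.26-fold, log2 difference 2.40, SE 0.46, adjusted p = 0.0021, and 6.19-fold, log2 difference 2.63, SE 0.47, adjusted p = 0.0013), a direction that the floor on the tumour mean favoured. Cpa3 and Mcpt4, proteases of connective tissue mast cells, had their highest tumour value in KA4 instead (7.73 and 7.21) and their lowest in KA1 (5.70) and KA5 (5.91), with skin medians of 8.11 and 7.30. The list of 10 mast cell genes stayed within 5.20 to 5.67 in the tumours, and Kit, the receptor that marks these cells, within 5.87 to 6.42.

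KA1 was low in fibroblast, matrix and macrophage genes. For comparison, it was the lowest tumour in 26.5% of all genes with a mean above 6, and in 40.7% of those with an SD of at least 0.5. The macrophage list of 15 averaged 5.98, 6.73, 7.11, 6.71 and 6.71, and 10 of the 15 were lowest in KA1; the skins lay between 6.80 and 7.68. Ms4a7, a macrophage membrane protein, was 5.42 in KA1 and 7.25 to 8.02 in the other tumours. The list of 20 fibroblast and matrix genes averaged 7.50, 7.89, 8.24, 8.03 and 8.01, with 12 of the 20 lowest in KA1 and a skin range of 8.22 to 8.62. Dpt, the matrix protein dermatopontin, read 6.55, 7.73, 9.06, 8.95 and 7.49, and Dcn, the proteoglycan decorin, 7.39, 9.07, 9.47, 9.76 and 8.95. Both were below every skin in all 5 tumours (log2 differences -2.02, SE 0.41, adjusted p = 0.0030, and -1.87, SE 0.36, adjusted p = 0.0021). The Langerhans and dendritic list was also lowest in KA1, at 5.97 against 6.27 to 6.35 in the others. Hbb-b1, a beta globin of red blood cells, was the gene of the 40 with KA1 on top, with 9.08, 6.34, 6.83, 6.45 and 5.04 against 5.67 to 7.89 in the skins (log2 difference -0.14, SE 0.59, adjusted p = 0.89).

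Muscle genes, high in every skin, were lowest in KA2 and KA5. Tnnt3, the troponin T of fast skeletal muscle, was 8.59, 6.38, 9.38, 9.46 and 6.31 in KA1 to KA5 and 11.91 to 12.51 in the skins. Tnnc2, the fast troponin C, read 8.51, 6.41, 8.68, 8.50 and 5.55, and Pvalb, the calcium buffer parvalbumin, 6.30, 4.57, 7.20, 7.84 and 4.59. KA2 and KA5 were the 2 lowest tumours in each of these genes, and every tumour was below every skin. Tumour means were 18.2-fold lower for Tnnt3 (log2 difference -4.19, SE 0.54, adjusted p = 0.00013), 23.6-fold for Tnnc2 (-4.56, SE 0.49, adjusted p = 3.7e-05) and 45.0-fold for Pvalb (-5.49, SE 0.52, adjusted p = 1.3e-05). Over 25 muscle genes the mean level was 6.22, 5.63, 6.62, 6.67 and 5.52, against 9.38 to 10.72 in the skins, and 24 of the 25 were lower in the tumours and 0 higher, against 10.8% and 14.5% of all genes. The list of 14 adipocyte genes was likewise lowest in KA5 (5.91) and highest in KA4 (6.84), and Cfd, the adipocyte factor adipsin, was 6.33, 6.78, 7.54, 8.17 and 5.76. How much of each tumour piece was adjoining tissue was not measured, and its part in these values was not tested.

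Sebaceous gland genes were lowest in KA5, with a list mean over 14 genes of 7.28, 7.01, 7.19, 7.14 and 6.64 and 7.16 to 7.66 in the skins. Elovl3, a fatty acid elongase of the gland, was 7.30, 6.54, 6.77, 6.66 and 4.81, and Scd1, a fatty acid desaturase, 9.60, 7.93, 9.57, 9.09 and 8.05. Scd1 was below every skin in all 5 tumours (log2 difference -1.84, SE 0.31, adjusted p = 0.00086), whereas Elovl3 ran from 4.72 to 7.63 in the skins and did not pass the test (log2 difference 0.49, SE 0.55, adjusted p = 0.56).

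**Figure D5:**
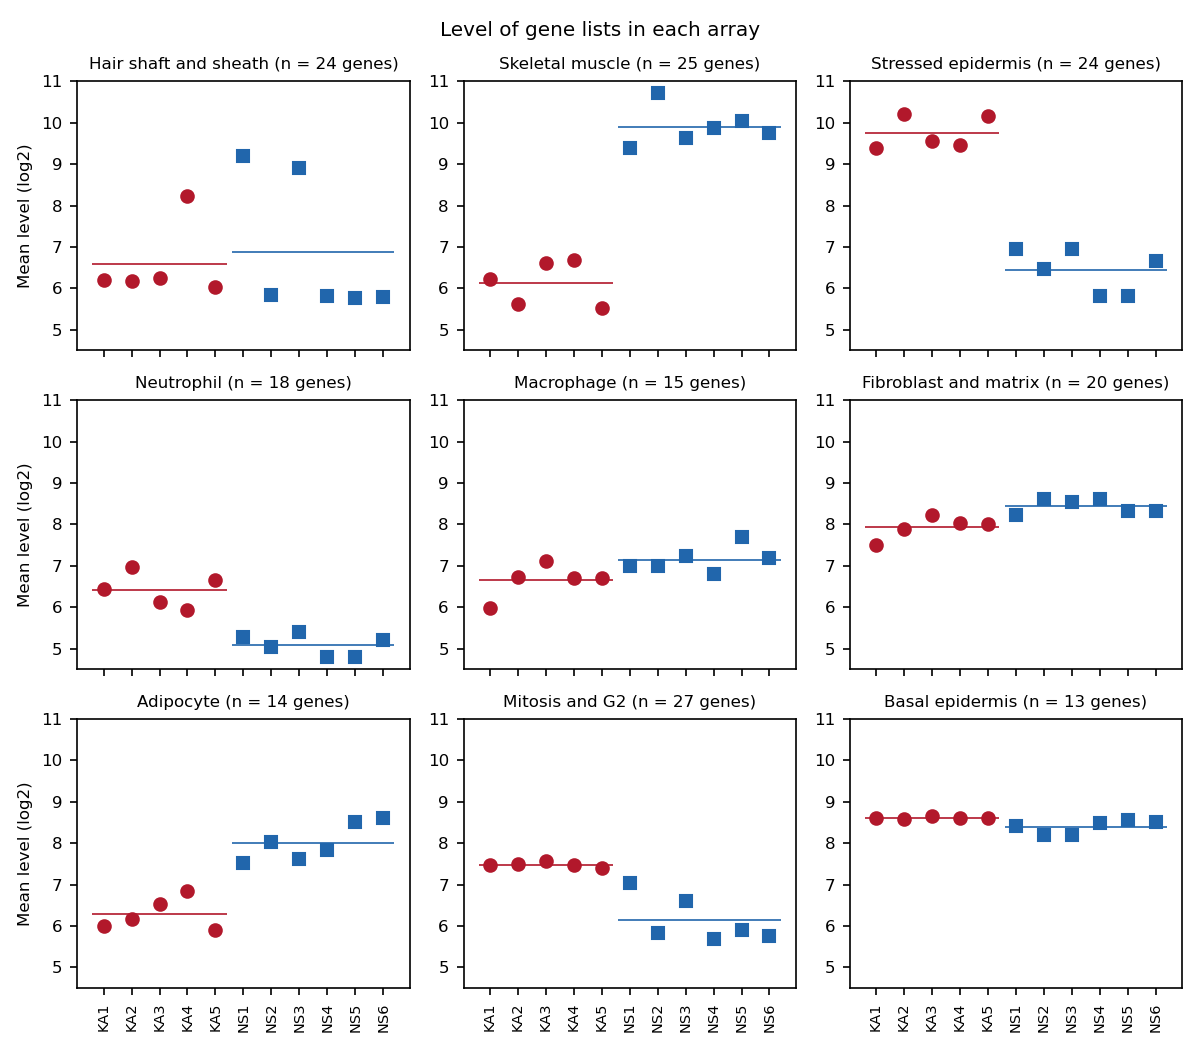
Mean gene value (log2) of 9 gene lists in each array, with keratoacanthomas as red circles, normal skins as blue squares and group means as lines. Hair genes are high in KA4 and 2 skins, muscle genes are lowest in KA2 and KA5, macrophage and fibroblast genes are lowest in KA1, and the mitosis and basal epidermis lists are level over the tumours.

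Lists of basal and dividing cells were among those that varied least. The 13 basal epidermis genes averaged 8.59 to 8.65 over the tumours, a range of 0.06, where the skins ranged over 0.38. Single members ranged more widely and not in the same direction, so the level mean does not hold for each gene. Itga6 and Itgb1 were lowest in KA1 (8.82 and 8.96, with ranges of 0.98 and 0.65). Itga3 was highest in KA1 (7.34, range 0.66) and Krt15 lowest in KA2 (10.81, range 0.73). The keratins that define the layer, Krt5 and Krt14, were 11.09 to 11.39 and 11.21 to 11.48 in the 5 tumours. The 27 genes of mitosis averaged 7.41 to 7.56 in the tumours and 5.67 to 7.03 in the skins, and all 27 were higher in the tumours, against 14.5% of all genes. DNA replication genes averaged 6.93 to 7.09 and cholesterol synthesis genes 8.03 to 8.21. Zmiz1 itself was 8.03, 8.24, 8.03, 8.27 and 8.17, with an SD of 0.11 over the tumours, and 7.15 to 7.91 in the skins (log2 difference 0.65, SE 0.14, adjusted p = 0.0045). The skins did not order by genotype. The double transgenic NS1 and NS2 read 7.63 and 7.15, NS3 and NS4 with K14-Cre alone 7.33 and 7.73, and NS5 and NS6 with the Zmiz1 transgene alone 7.24 and 7.91.

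The 20 genes with the smallest SD, 0.0107 to 0.0270, differed by at most 1.05-fold over the tumours. The last inside were Gm5911 and Rpl7a, and the first outside were Topors (0.0280) and Mical2 (0.0286). Krt1, the keratin that marks the spinous layer, was 11.81, 11.80, 11.82, 11.76 and 11.81 in the tumours, while the skins ran from 10.52 to 11.12. All tumours were above all skins, and the mean was 1.97-fold higher (log2 difference 0.97, SE 0.12, adjusted p = 9.1e-05). Krt77, a suprabasal keratin just outside the 40 most variable genes, was 8.49, 8.91, 9.62, 10.19 and 7.13 in the same arrays and 10.98 to 11.95 in the skins. The spinous keratins thus differed in spread, from 0.02 for Krt1 to 1.17 for Krt77.

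Psmd4 and Psmc1, subunits of the regulatory particle of the proteasome, were 9.25 to 9.30 and 10.32 to 10.38 in the tumours, and 8.47 to 8.87 and 9.42 to 9.99 in the skins. Rpl7a, a protein of the large ribosomal subunit, lay between 10.77 and 10.83, and Mdn1, an ATPase of ribosome assembly, between 7.57 and 7.64 over 104 probesets. Rab14, a small GTPase of endosomes, was 10.04 to 10.09, and Ccdc58 10.43 to 10.48. Together with Krt1 and Gm5911 these made 8 of the 20 genes that were higher than in skin, all of them without overlap, where 26.9% of genes with a tumour mean above 6 were higher and 18.3% were higher without overlap. Cox6c, a subunit of cytochrome c oxidase, was 1 gene of the 20 that was lower, at 11.65 to 11.71 against 11.89 to 12.17 (log2 difference -0.32, SE 0.08, adjusted p = 0.015), a call lost with quantile normalization, as were those of Psmc1 and Rab14. The remaining 11 passed in neither direction, among them Gjd3, a connexin, Bptf, a chromatin remodelling subunit, Sigirr, an inhibitor of interleukin 1 receptor signalling, Smyd3 and Prmt2, methyltransferases, Rnf7, a subunit of cullin ubiquitin ligases, Ndufab1, a mitochondrial acyl carrier protein, and Terf2, a telomere-binding protein.

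All 20 had the larger SD in the skins, 0.06 to 0.42 with a median of 0.21, which follows from choosing them by the smallest SDs in the tumours. The place of a gene among the 20 depended on the median over its probesets: single probesets of Mdn1 had SDs up to 1.34 and those of Krt1 up to 0.27. When the gene value was the mean over probesets, 4 of the 20 were still among the 20 steadiest, and between 3 and 8 were when 1 tumour was left out. The spread of the most variable genes was also read in separate probesets. The probesets of 8822 genes with at least 4 of them were dealt in turn into 2 sets. In the first set 55 genes had an SD of at least 1, of which 30 had one in the other set and 42 had the same highest tumour there. The SD of these 55 in the other set had a median of 1.15 and went down to 0.073. Over all 8822 genes the SDs of the 2 sets had a Pearson correlation of 0.546 and a Spearman correlation of 0.281, as a description across genes.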

How the data were processed

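The 5 keratoacanthoma and 6 normal skin samples were each measured on 1 single-colour mouse whole-transcript array, with amplified, biotin-labelled cDNA from total RNA. The deposited values are on a log2 scale and ran from 0.994 to 15.2 without missing values; the submitters' processing notes name RMA, Partek and build mm9, with versions and settings not given in the sources used here. RMA corrects background, quantile normalizes and summarizes probes, which equalizes the arrays' distributions, and low signals are compressed. Of 241576 probesets, 212097 named 1 gene, 4475 several and 25004 none, by the array annotation; 590 duplicates were dropped. The gene value was the median over probesets (20352 genes, median 8 probesets each). No depth applies to arrays; the number of arrays limits the precision.

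Group means were tested with limma 3.58.1 in R 4.3.3 (lmFit, eBayes) on all genes, and spread with the same tool on absolute deviations from the group median, scaled for group size, for genes with a mean above 6 in either group. P-values were Benjamini-Hochberg adjusted over all genes tested, with a threshold of 0.05, and both fits were tested on simulated data, where the one on spread missed the changes put in. Genes were ranked by their SD over the tumours, which therefore has no test. Named were the 40 largest and 20 smallest SDs, up to 4 members of a list with the largest SD and a mean above 6, and Zmiz1; Krt5, Krt14 and Kit served as cell markers. Tchh, Krt84 and Topors to Car3 beside the list ends are named because they bound or except a count. Krt6a, Krt6b, Krt16 and Krt17 are named because they go otherwise than the mean of their list. The members and the 37 lists (608 genes measured) were chosen with earlier results of these data known. Alternatives were the mean over probesets, centred or quantile normalized arrays, other floors on the mean, genes with at least 4 probesets, other measures of spread, other moderation, the title number as a block, and leaving out each array. Fits without normal skin 1 and 3, the variance ratio F test and rankings without hair genes were added after the data were seen. Promoters are from a RefSeq table of GRCm38.p6. Other steps ran in Python 3.11.15 with numpy 2.4.6 and pandas 2.3.3, and plots in matplotlib 3.10.9. Genome positions of probesets were not used here.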

Additional observations from a re-analysis of the deposited data

Results flagged for a closer look

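Within each group of 5 or 6 arrays, the gap between the extreme array and its nearest neighbour was divided by the group's range, for 196 combinations of a named gene or list and a group. A single array stood far from the others in 22 of them (11.2%). The share of about 5% that chance gives is no yardstick here, since the named genes were chosen by their SD over the same tumours. Many of these are hair genes of the same tumour and are not independent of each other.

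KA4 stood far above the other tumours in 13 genes, with shares of the range of 0.782 for Krtap7-1, 0.779 for Krtap8-1, 0.796 for Krtap3-3, 0.923 for Krtap16-3, 0.933 for Krtap19-4, 0.899 for Krtap11-1, 0.802 for Krtap5-2 and 0.834 for Krtap3-2. The same held for the inner root sheath keratins Krt25 (0.861), Krt71 (0.776) and Krt72 (0.919), for S100a3 (0.741) and for the gene model 5430421N21Rik (0.896). The hair shaft and sheath list as a whole gave 0.900. KA4 stood far below the others in Mcpt1 (0.799), with 3.94 against 6.50 in the next tumour.

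In lists, KA1 was far below the other tumours in the Langerhans and dendritic genes (0.794) and KA5 in the circadian clock genes (0.802, 6.20 against 6.37 in the next tumour). Among the skins, NS2 was far below the others in the spinous and granular list (0.846) and far above them in Ndufab1 (0.727) and Cox6c (0.658). NS3 was far above the others in Rnf7 (0.696) and NS4 far below them in Psmc1 (0.678).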

How the results depend on the processing

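The 68 genes with an SD of at least 1 became 39 with a mean above 7 and 39 to 81 when 1 tumour was left out, lowest without KA4. Of the 40 most variable genes, 25 were shared with a mean above 5, 23 with a mean above 7, 10 with the median absolute deviation, 22 without the hair and Krtap genes, and 14 to 35 without 1 tumour. Of the 20 least variable, 4 were shared with the mean over probesets, 8 with centred arrays, 2 with quantile normalization, 10 and 13 with means above 5 and 7, 2 with the median absolute deviation, and 3 to 8 without 1 tumour. Genes lower in the tumours numbered 1442 among genes with a mean above 6, which tests fewer genes. Genes spread more in the tumours numbered 3 with deviations from the group mean and 0 to 9 with 1 array left out. Those spread less numbered 15 with deviations from the group mean, 5 with quantile normalization, 0 with trend and robust moderation, 0 with squared deviations, 0 with the F test (also without NS1 and NS3), 13 without NS1 and NS3, and 0 to 6 with 1 array left out. The range over the tumours of the basal epidermis list rose from 0.06 to 0.10 with the mean over probesets and with quantile normalization. That of the circadian clock list fell from 0.21 to 0.12 and that of the common reference genes from 0.23 to 0.13 with the mean over probesets, and those of the ribosomal and proteasome lists, 0.22 and 0.28, both fell to 0.12 with quantile normalization. The causes of these changes were not tested.

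Tumours and skins share title numbers, and the labels do not say whether these pair the arrays. The deviations of same-numbered arrays had correlations of -0.181 to 0.103 across genes, which cannot decide it. With the replicate block, 2596 genes were higher and 1716 lower in the tumours, and 0 spread more and 0 less; the calls of Cox6c and Mt4 were lost with it. Of the comparisons of named genes with skin under the alternatives, 1078 kept direction and side of the threshold, 9 lost the call and 7 gained it, and 0 reversed.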

Other observations

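Some single probesets were high in 1 array while the rest of their gene was not. With a gap of at least 3 on the log2 scale to all 10 other arrays, in genes of at least 4 probesets whose gene value in that array lay within 0.5 of the others, 20 such probesets were found in KA5, 5 in KA4, 2 in KA1 and 1 each in KA2 and KA3. The skins had 3, 2, 2, 13, 6 and 8 in NS1 to NS6. A probeset of Dync1h1 (10398543), a dynein heavy chain gene of 77 probesets, read 15.2 in KA4 and at most 7.53 elsewhere, which is the highest value of the table. A probeset of Col11a2 (10444171), a collagen gene of 64 probesets, read 11.4 in KA5 and at most 5.21 elsewhere. The median over probesets leaves such values out of the gene values, and their source was not tested. These genes were named after their values were seen.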
